A study of Mus musculus with 12 samples.

Results

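The lysosome is the acid compartment in which macrophages break down what they engulf and their own worn-out material. The 43 genes described here encode lysosomal proteases, glycosidases, sulfatases and lipid-handling proteins, membrane proteins of the organelle, subunits of its proton pump and 2 regulators of it. They were given as a list of gene symbols, and each was found by its symbol on the array. A probe set named 42 of them, out of 18194 genes measured, and Cd63, which no probe set carries as its symbol, was not analysed here. Each gene was read from its brightest probe set over all arrays.

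All groups were macrophages differentiated with M-CSF, a macrophage growth factor, from the bone marrow of strain C57Bl/6 mice. Lipopolysaccharide (LPS) is a glycolipid of bacterial outer membranes that macrophages sense through Tlr4, and the study asked how cells that have met it respond to it again. Restimulated cells had 100 ng/ml LPS for 18 h, new medium, 2 h of rest and 100 ng/ml LPS again, and pretreated cells had the same without the last dose. Cells given LPS once had no LPS in the 18 h and 100 ng/ml at the end, and untreated cells had none at either step. The sources used here do not give how long the last dose lasted, nor the age or sex of the mice. Each group had 3 biological replicates, lettered A, B and C, for 12 arrays in all. The labels do not say whether replicates came from separate animals, so p-values measure the spread between these cultures.

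Lysosomal hydrolases are made in the endoplasmic reticulum, sorted through the Golgi by sugar tags and their receptors, and work at the acid pH that a vacuolar proton ATPase maintains. The transcription factor Tfeb enters the nucleus when it is dephosphorylated, as in starvation, and binds an E-box palindrome near the start of many lysosomal genes. Macrophages hold many lysosomes, in which engulfed microbes and cell debris are broken down and peptides for antigen presentation are made.

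The E-box, written CACGTG, lay in the promoter window of 14 of the 35 measured genes that had a promoter in the RefSeq table (build GRCm38.p6), which is 40%. The window ran from 250 bases before to 50 bases after the gene start, and both strands were read, since this palindrome is the same on each. It occurred in 10.2% of the 14453 measured genes with a promoter in the table, where a gene counted if any of its promoters held it. Counted by promoter, 14 of the 41 promoters of the lysosomal genes held it, or 34.1%, against 7.15% of all 32851 promoters. The 7-base form TCACGTG, which contains the palindrome, was in 12 of the 35, or 34.3%, against 5.8% of those measured genes and 3.77% of all promoters. Stretches of 6 of these promoters are shown, from the genes with the largest change in any comparison, up or down, with CACGTG in capitals. Each is written 5′ to 3′ on the strand of its gene.
Naglu, chr11:101069981-101070066, plus strand: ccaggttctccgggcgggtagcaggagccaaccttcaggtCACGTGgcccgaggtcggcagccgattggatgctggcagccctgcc
Cln3, chr7:126583312-126583397, minus strand: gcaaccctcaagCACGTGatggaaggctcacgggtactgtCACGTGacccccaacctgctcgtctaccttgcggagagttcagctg
Gaa, chr11:119267783-119267868, plus strand: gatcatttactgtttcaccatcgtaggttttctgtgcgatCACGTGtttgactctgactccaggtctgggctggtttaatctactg
Mcoln1, chr8:3500434-3500518, plus strand: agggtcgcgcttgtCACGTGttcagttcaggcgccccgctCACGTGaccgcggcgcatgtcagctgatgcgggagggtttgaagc
Glb1, chr9:114400990-114401075, plus strand: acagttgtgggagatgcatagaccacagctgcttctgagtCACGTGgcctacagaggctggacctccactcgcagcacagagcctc
Gla, chrX:134601154-134601239, minus strand: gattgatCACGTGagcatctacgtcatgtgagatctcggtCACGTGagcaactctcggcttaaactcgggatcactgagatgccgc

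Of the 22 matches in the windows of these 14 genes, 18 lay between 150 bases before and 50 bases after the gene start. Naglu, Gaa and Glb1 held 1 match each, and Cln3, Mcoln1 and Gla held 2. A match is a run of letters, and binding of Tfeb was not measured. Lamp1, which encodes an abundant glycoprotein of the lysosomal membrane, held 4 matches within 61 bases of its start.

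**Figure D1:**
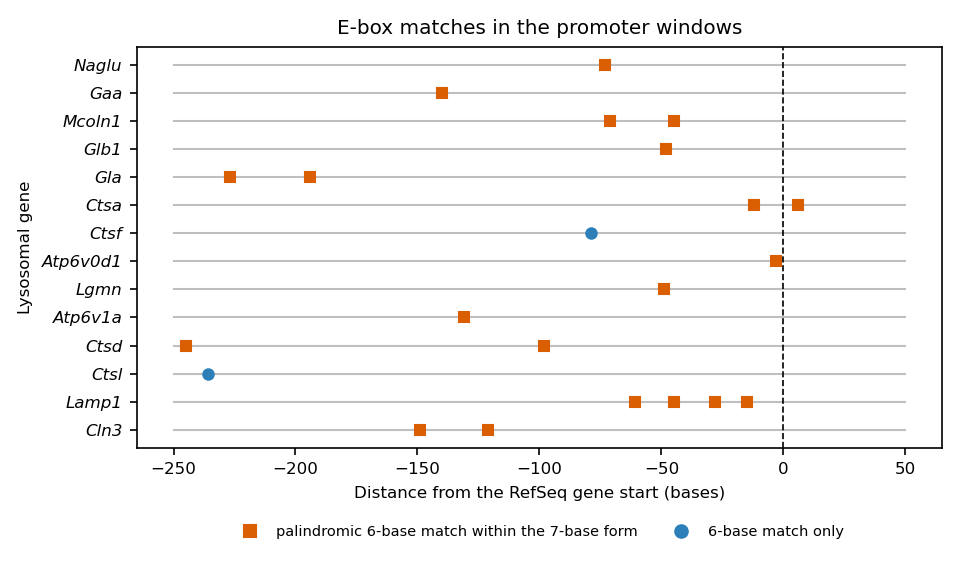
Positions of the E-box palindrome in the promoter windows of the 14 lysosomal genes that hold it. The horizontal axis is the distance in bases from the RefSeq gene start (dashed line), squares mark matches within the 7-base form and circles mark matches of the 6 bases alone. Of the 22 matches, 18 lie between -150 and 50 bases.

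The 12 arrays had median intensities between 29.72 and 31.65, in array units. The restimulated C array stood apart above the median, with a mean intensity of 246.7 against 310 to 317 on the other 11 arrays. Over 6229 genes of mid-range intensity (100 to 1000), its log2 values had a median offset of -0.52 from the mean of restimulated A and B, and over the lysosomal genes the offset was -0.28, with 40 of 42 below that mean. Where the restimulated group is used, the counts of the 42 genes that passed, their medians, and the changes of the passing genes among them with values by array are therefore also given without this array. All 8 macrophage markers were measured, and each reached 100 on some array. So did 5 of 7 measured fibroblast and stroma markers (Col1a2 up to 4520), 3 of 7 neutrophil and granulocyte precursor markers (Ngp up to 959.2), 3 of 5 erythroid and megakaryocyte markers (Pf4 up to 10296) and 1 of 7 dendritic cell markers, but none of 7 lymphocyte and none of 6 mast cell and osteoclast markers. Tnf, an early LPS target, had intensities of 5586, 7702 and 8019 in cells given LPS once, against 337.1, 282.6 and 394.2 in untreated cells, so the labels of these groups fitted this response.

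The first LPS response compared cells given LPS once with untreated cells, and here lysosomal genes fell broadly. Of the 42 genes, 32 fell and 2 rose at an adjusted p under 0.05, and 39 of the 42 changes were negative. Of all 18194 genes, 20.4% fell and 13.0% rose by the same rule. The share of the 42 that fell was 76.2%. Their median log2 change was -0.73, against 0.04 over all genes, with a range of -1.74 to 0.53. The fall was at least 2-fold for 9 of them, where 9.16% of all genes fell as far, and no rise reached 2-fold, where 3.92% of all genes rose as far. Changes are limma estimates on log2(intensity + 16) with standard errors (SE), and 3 arrays stand in each group.

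The falls appeared in each replicate letter. Cells given LPS once were lower than untreated cells of the same letter for 38 genes in A, 39 in B and 39 in C, with median differences of -0.70, -0.67 and -0.77. Among all genes, 44.7%, 46.8% and 44.5% were lower in the same pairs. All 3 arrays of cells given LPS once lay below all 3 untreated arrays for 35 of the 42 genes, as for 27% of all genes, and above them for 3 (Ctsc, Cln3 and Atp6v1h), as for 29.6% of all genes. Among the 8372 genes with a mean intensity of at least 100, to which 41 of the 42 belong, 36.3% fell, 14.9% rose and the median change was -0.27. Bulk RNA does not tell less RNA per cell from fewer cells of a type.

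**Figure D2:**
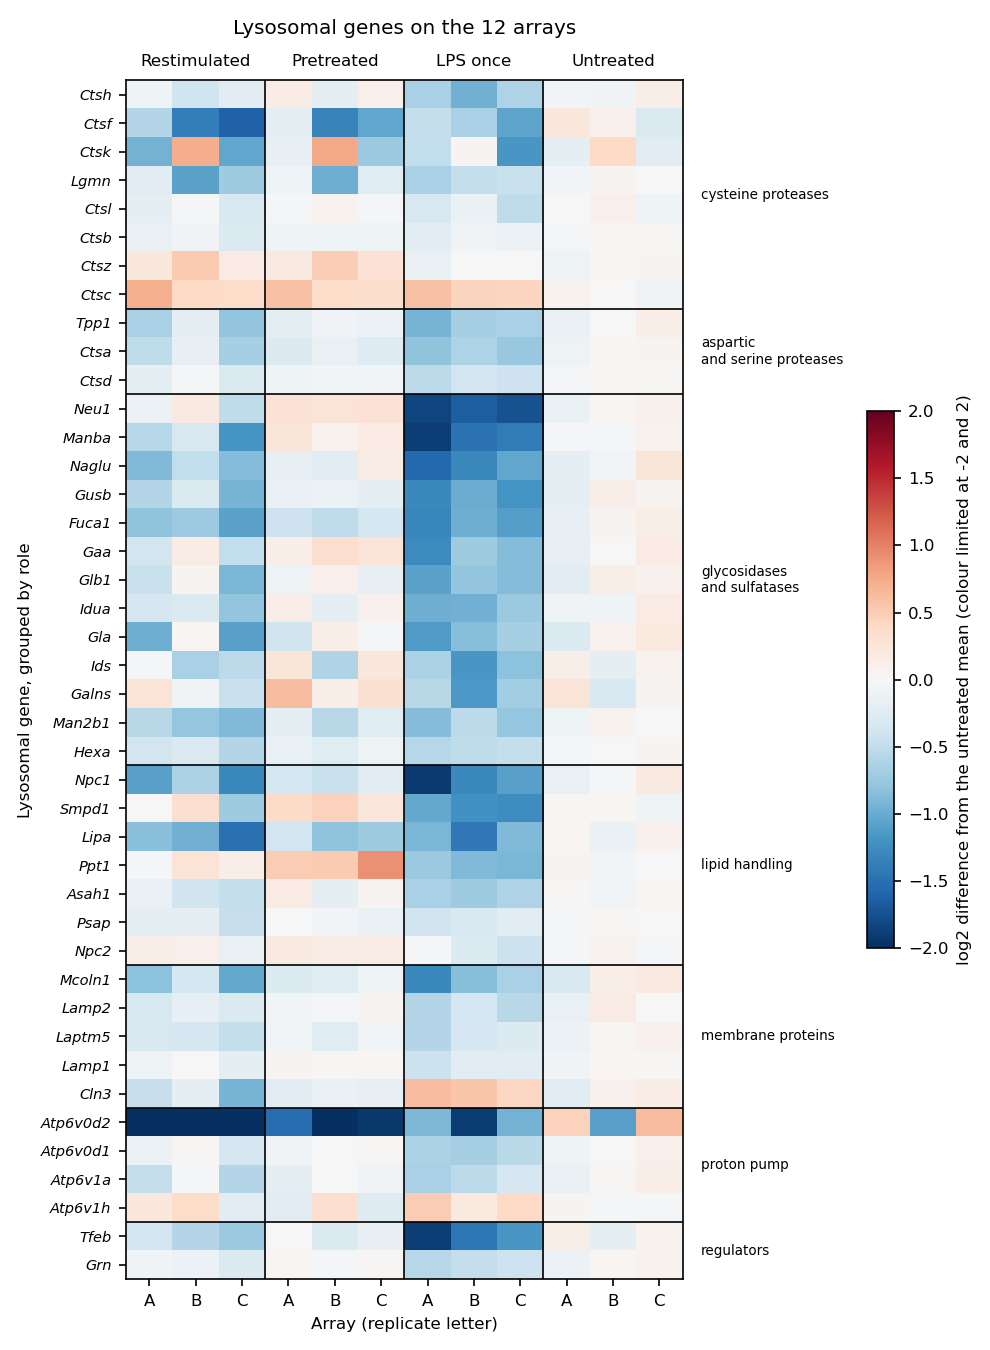
Each of the 42 lysosomal genes (rows, grouped by role) on each of the 12 arrays (columns, by group and replicate letter). Colour is the log2 difference from the mean of the 3 untreated arrays, blue for lower and red for higher, limited at -2 and 2. The LPS once columns are blue for 39 of the 42 genes on average, while pretreated columns are paler for most genes, with Atp6v0d2 an exception.

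The glycosidases and sulfatases, which strip sugars and sulfates from glycoproteins, glycolipids and matrix polysaccharides, all fell. The 13 measured had a median log2 change of -0.91, and 5 of them fell at least 2-fold.
Neu1, the lysosomal sialidase, had intensities of 240.7, 275.2 and 257.7 in cells given LPS once, against 823.8, 927.4 and 954.2 in untreated cells. These arrays did not overlap. On the probe sets used, Neu1 had the largest fall of the 42 genes, with a log2 change of -1.74 (SE 0.14, limma adjusted p = 3.119e-05). Manba, the beta-mannosidase, had 220.1, 297.2 and 314.5 in cells given LPS once, against 829.7, 834.0 and 900.9 in untreated cells. Its log2 change was -1.58 (SE 0.20, adjusted p = 0.000274), again with no overlap. Naglu, which acts in the breakdown of heparan sulfate, had 283.6, 346.5 and 411.5 in cells given LPS once, against 761.2, 835.4 and 1033 in untreated cells, a log2 change of -1.30 (SE 0.17, adjusted p = 0.000357).

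Gusb, the beta-glucuronidase, had intensities of 1735, 2126 and 1852 in cells given LPS once, against 3715, 4693 and 4428 in untreated cells. Every array of the first group was below every array of the second, and the log2 change was -1.16 (SE 0.15, adjusted p = 0.000374). Fuca1, the alpha-fucosidase, had 1436, 1801 and 1644 in cells given LPS once, against 3179, 3672 and 3835 in untreated cells, also without overlap and with a log2 change of -1.12 (SE 0.12, adjusted p = 9.365e-05). The other 8 of this group fell by less than 2-fold on the probe sets used. Gaa, the glycogen-degrading alpha-glucosidase, had a log2 change of -0.95, and Glb1, the beta-galactosidase, one of -0.91. Idua, which removes iduronic acid from heparan and dermatan sulfate, changed by -0.89, and Gla, which removes galactose from glycolipids, by -0.88. Ids and Galns, both sulfatases, changed by -0.87 and -0.80. Gla did not pass without untreated B or C, any LPS once array or pretreated C, Ids without untreated A or C or LPS once B or C, and Galns without untreated A or C or LPS once B. The alpha-mannosidase Man2b1 changed by -0.72 on the probe set used, and a further probe set of it is described below. Hexa, a subunit of beta-hexosaminidase, had the smallest change of the group, -0.52.

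Of the 7 genes that handle lipids, 6 fell and 3 of these fell at least 2-fold, with a group median of -0.85. Npc1, the membrane protein that moves cholesterol out of the lysosome, had intensities of 403.7, 629.5 and 726.5 in cells given LPS once, against 1412, 1526 and 1764 in untreated cells. The groups did not overlap, and the log2 change was -1.43 (SE 0.22, adjusted p = 0.00085). Smpd1, the acid sphingomyelinase, had 164.9, 142.7 and 139.6 in cells given LPS once, against 362.4, 361.0 and 330.0 in untreated cells, a log2 change of -1.16 (SE 0.21, adjusted p = 0.00259). The acid lipase Lipa fell by 1.07 on the log2 scale (SE 0.20, adjusted p = 0.0025). Ppt1, which removes palmitate from proteins, fell by 0.85, and the ceramidase Asah1 fell by 0.66. Psap, the precursor of the saposins that help hydrolases reach lipids, fell by 0.31, and it did not pass without LPS once A. Npc2, the soluble cholesterol carrier that works with Npc1, changed by -0.25 and did not pass (adjusted p = 0.0988).

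The aspartic protease Ctsd, the serine carboxypeptidase Ctsa and the tripeptidyl peptidase Tpp1 all fell, with log2 changes of -0.44, -0.73 and -0.75. Of the 8 cysteine proteases, 2 fell and 1 rose, with a median of -0.42. Changes of the lysosomal genes were smaller at high intensity. Their median was -0.94 at mean intensities under 1000, -0.74 from 1000 to 5000 and -0.32 from 5000 up. Over all genes these bands had medians of 0.05, -0.17 and -0.15. Ctsb, Ctsc, Ctsl, Ctsz and Lgmn lay in the brightest band, as did Hexa and Man2b1 of the glycosidases. Whether role or intensity went with the smaller changes was not tested. Ctsh, an aminopeptidase, changed by -0.74 (adjusted p = 0.00165), and the endopeptidase Ctsl by -0.32 (adjusted p = 0.041). Ctsl kept its call only without LPS once B, restimulated B or restimulated C, and lost it without any 1 of the other 9 arrays. Ctsf, Ctsk and the asparaginyl endopeptidase Lgmn had log2 changes of -0.73, -0.53 and -0.53 that did not pass. Ctsf passed with the replicate letter as a block (limma adjusted p = 0.0187). With only the arrays compared, Ctsf and Lgmn passed (limma adjusted p = 0.0321 and 0.0032), and their arrays did not overlap between these groups. Ctsb and Ctsz had changes of -0.14 and -0.05, and neither passed.

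Ctsc, the dipeptidyl peptidase that activates serine proteases of granules, went the other way. Its intensities, chosen for display after its values were seen, were 8407, 7596 and 7543 in cells given LPS once, against 5849, 5559 and 5313 in untreated cells. Every array of cells given LPS once was above every untreated array, and the log2 change was 0.49 (SE 0.10, adjusted p = 0.00483). Cln3, a membrane protein whose human gene is mutated in a childhood storage disease of neurons, also rose. It had 1943, 1867 and 1695 in cells given LPS once, against 1073, 1332 and 1405 in untreated cells, a log2 change of 0.53 (SE 0.17, adjusted p = 0.0335). The groups did not overlap, but Cln3 no longer passed when any of 5 arrays was left out, namely untreated A, untreated B or any of the LPS once arrays, while Ctsc passed in each case.

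The other 4 membrane proteins fell. Mcoln1, a cation channel that releases calcium from the lysosome, had a log2 change of -0.93 (SE 0.21, adjusted p = 0.00715). The membrane glycoproteins Lamp2 and Lamp1 changed by -0.49 and -0.29, and Laptm5, a lysosomal transmembrane protein of blood cells, by -0.40. Lamp1 did not pass without untreated B or C. For Laptm5 a dim probe set gave the other sign. Without probe sets whose name carries an s, x or a suffix, given to probes that may match more than 1 transcript, its change came from that probe set. The change was 0.23 and did not pass (limma adjusted p = 0.408), and the mean intensity of that probe set was under 100.

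Among the 4 subunits of the proton pump, Atp6v0d1, part of the membrane sector, fell by 0.61 on the log2 scale, and Atp6v1a, the subunit that hydrolyses ATP, fell by 0.51. Atp6v1a did not pass without untreated B or C or LPS once A or B. Atp6v1h, a regulatory subunit, had a log2 change of 0.37 that did not pass (adjusted p = 0.155), and its arrays did not overlap between the groups. Atp6v0d2, the form of the d subunit that is abundant in osteoclasts, varied widely between replicates. Its arrays, chosen for display after its values were seen, held 151.9, 68.08 and 145.6 in cells given LPS once, against 411.6, 130.6 and 466.8 in untreated cells. The untreated B array lay below both other untreated arrays and overlapped the LPS once group. The log2 change of -1.24 (SE 0.45) did not pass (adjusted p = 0.0604), and with the replicate letter as a block it passed (adjusted p = 0.00719).

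Both regulators fell. Tfeb had intensities of 109.6, 153.6 and 192.2 in cells given LPS once, against 484.7, 392.9 and 470.1 in untreated cells. The groups did not overlap, and the log2 change was -1.50 (SE 0.18, limma adjusted p = 0.000202). On the probe sets used, this was the third largest fall of the 42 genes, after Neu1 and Manba. Grn, which encodes progranulin, a secreted and lysosomal glycoprotein, changed by -0.49 (SE 0.07, adjusted p = 0.000858). Genes with and without the E-box overlapped in the size of their change. The 14 with it had a median log2 change of -0.67, in a range from -1.30 to 0.53, and the 21 with a promoter but no match had -0.75, in a range from -1.74 to 0.49. Neu1 and Ctsc stand at the ends of the second range.

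**Figure D3:**
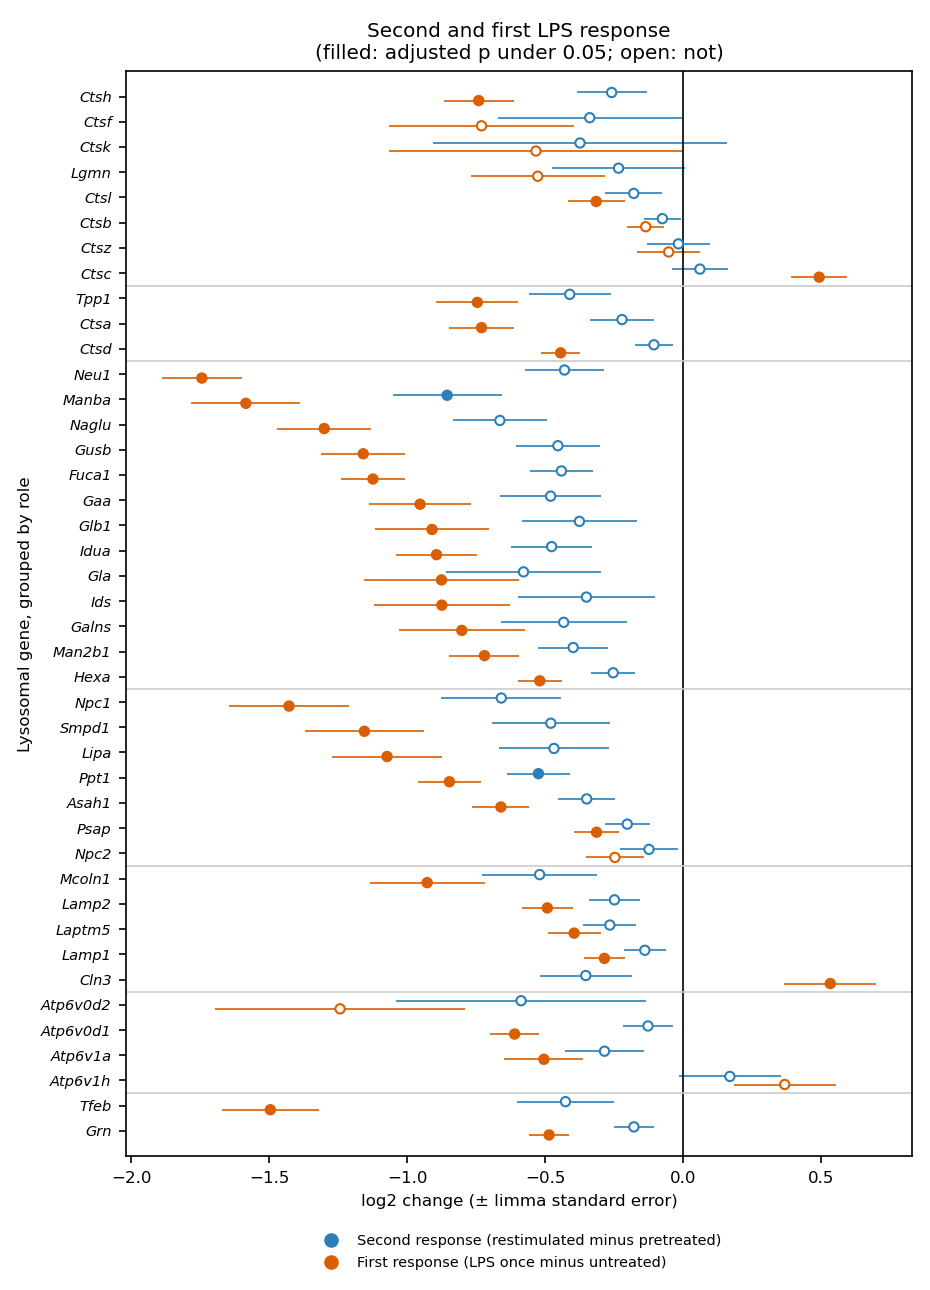
Log2 change of each of the 42 lysosomal genes (rows, by role) in the second response (blue, restimulated minus pretreated) and the first response (orange, LPS once minus untreated), with bars of 1 limma SE, 3 arrays in each group. Filled points passed at an adjusted p under 0.05 and open points did not. First-response points reach from -1.74 to 0.53, and second-response points from -0.86 to 0.17.

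Some measures of the cells and RNA moved beside the first response, and their part in it was not tested. The summed intensity of the 8 macrophage markers was 55480 to 57140 in cells given LPS once, against 58544 to 59684 in untreated cells. Its members moved in both directions, with group means of 137.2 and 1669 for Mertk, 2108 and 2965 for Itgam, 7104 and 9609 for Cd68, and 12510 and 6651 for Cd14, each given for LPS once and then untreated cells. The ratio of 3′ to 5′ probe sets of Gapdh, a measure of RNA integrity, ran from 1.22 to 1.85 in cells given LPS once, against 1.311 to 1.403 in untreated cells. For Actb it ran from 1.406 to 1.932, against 1.342 to 1.529 in untreated cells. The sum of 7 fibroblast and stroma markers differed mainly by replicate letter, in every group lower on the C array than on A and B.

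A second set of 91 lysosomal genes outside the 42 was counted in the same way. In the first response 54 of them fell and 6 rose, with a median log2 change of -0.55. By type, 14 of 23 further hydrolases, 17 of 25 further membrane proteins, 9 of 14 further pump subunits and 12 of 21 sorting receptors and coats fell. Of 5 protease inhibitors 2 fell and 1 rose, with a median of -0.07. Of 3 transcription factors related to Tfeb none fell and 2 rose, with a median of 0.90. Sgsh, a sulfatase of heparan sulfate, had 50.19, 56.75 and 59.92 in cells given LPS once, against 543.9, 610.7 and 639.1 in untreated cells, a log2 change of -3.10 (SE 0.25, adjusted p = 2.573e-05). Tpcn1, a cation channel of endosomes and lysosomes, and Pla2g15, a lysosomal phospholipase, had log2 changes of -2.81 and -2.39. Tfec, a relative of Tfeb, rose by 3.50 (SE 0.27, adjusted p = 2.384e-05), with 4056, 6067 and 5083 in cells given LPS once, against 463.6, 409.9 and 414.6 in untreated cells. Acp5, the tartrate-resistant acid phosphatase, and Cst7, a cystatin that inhibits cysteine cathepsins, rose by 2.52 and 1.98.

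**Figure D4:**
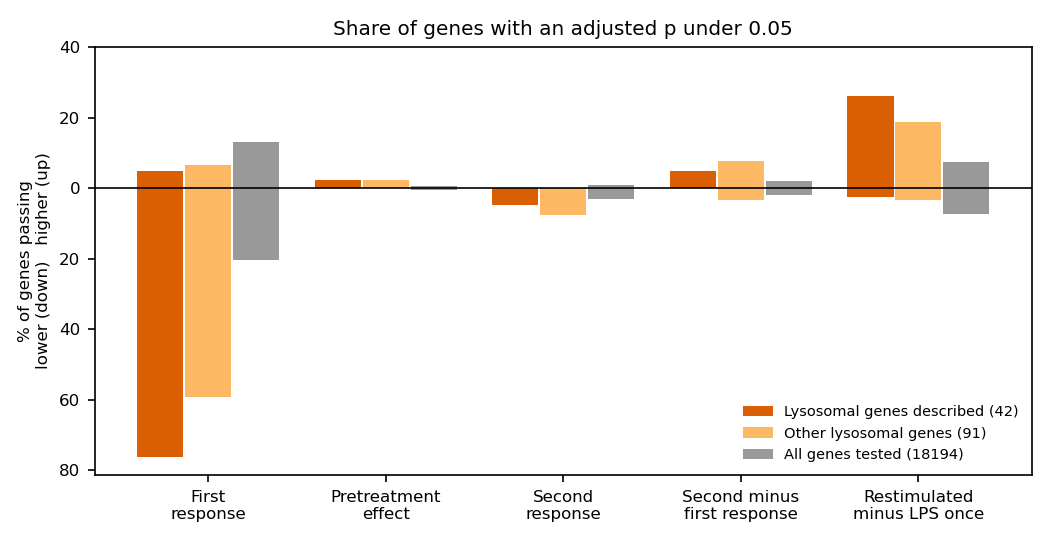
Percent of genes that passed at an adjusted p under 0.05, higher (up) or lower (down), in each of the 5 comparisons, for the 42 lysosomal genes, the 91 other lysosomal genes and all 18194 genes tested. In the first response 76.2% of the 42 genes fell, against 20.4% of all genes, and in the last comparison 26.2% were higher, against 7.50% of all genes.

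The effect of the pretreatment alone compared pretreated with untreated cells, so both had rested for 2 h and neither had the last dose. At an adjusted p under 0.05, 1 of the 42 lysosomal genes, Ppt1, was higher and none was lower. At an unadjusted p under 0.05, limma counted 3 higher and 5 lower, and 1056 higher and 1138 lower of all 18194 genes. By the adjusted p, 0.478% of all genes were higher and 0.451% lower. Of all genes 0.297% and 0.319% were so by at least 2-fold, which Ppt1 did not reach. The median log2 change of the 42 was -0.06, with 15 positive and 27 negative changes in a range from -1.91 to 0.65. By letter, pretreated cells were lower than untreated cells for 18 of the 42 in A, 29 in B and 28 in C, with median differences of 0.02, -0.09 and -0.12, where 46.5%, 45.6% and 45.5% of all genes were lower. Pretreated arrays lay all above the untreated arrays for 6 of the 42 genes and all below for 10, as they did for 15.7% and 11.6% of all genes. The pretreatment effect and the first response share the untreated arrays.

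Ppt1 had intensities of 1552, 1566 and 2041 in pretreated cells, against 1132, 1037 and 1079 in untreated cells. The groups did not overlap, with a log2 change of 0.65 (SE 0.12, adjusted p = 0.0351). Leaving out 1 array removed the call in 8 of 12 cases, namely any untreated, any pretreated, or the LPS once B or C array. With the replicate letter as a block Ppt1 kept its call (adjusted p = 0.0464) and 2 more genes passed. Ctsc, the dipeptidyl peptidase, had a log2 change of 0.44 (limma adjusted p = 0.0141 with the block), with 8401, 7168 and 7106 in pretreated cells, above every untreated array. A further probe set of Ctsc with a mean intensity of at least 100 had the opposite sign in this comparison.

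Atp6v0d2 was lower, with 92.38, 48.81 and 65.75 in pretreated cells, against 411.6, 130.6 and 466.8 in untreated cells. All pretreated arrays lay below all untreated arrays, and within each letter the pretreated array was the lower. The log2 change of -1.91 (SE 0.45), the largest of the 42 in this comparison, did not pass without the block (adjusted p = 0.102), passed with it (adjusted p = 0.013) and passed when the untreated B array was left out (log2 change -2.45, adjusted p = 0.0185) or dim genes were (adjusted p = 0.0458). Ctsf, a cysteine protease, and Lipa, the acid lipase, changed by -0.86 and -0.64 and did not pass (adjusted p = 0.333 and 0.214). Of the 91 other lysosomal genes, Acp5 and Naaa, an acid amidase of fatty acid amides, rose by 2.88 and 1.59, and none fell.

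The second LPS response compared restimulated with pretreated cells. Changes were mostly negative and smaller: 2 of the 42 genes, Manba and Ppt1, fell and none rose, while 3.09% of all genes fell and 0.962% rose. At an unadjusted p under 0.05, limma counted 21 lower and none higher, and 2784 lower and 821 higher of all 18194 genes. The change was negative for 40 of the 42, with a median of -0.35 in a range from -0.86 to 0.17. Over all genes the median was -0.02. All restimulated arrays lay below all pretreated arrays for 18 of the 42, as for 15.1% of all genes, and none lay above, as for 8%. Of the 91 other lysosomal genes, 7 fell and none rose, with a median of -0.27, and without restimulated C 1 fell, with a median of -0.13.

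The call count turned on single restimulated arrays. Without restimulated A 1 of the 42 fell, without restimulated B 14 fell, and without restimulated C none fell. Of all genes 1.57%, 6.8% and 1.19% fell in the same 3 settings. None of the 42 fell either without any 1 of the untreated arrays, LPS once B or C, or pretreated A or C. There the count of all genes that fell also dropped from 563. It was 321, 329 and 335 without untreated A, B and C, 382 and 396 without LPS once B and C, and 98 and 55 without pretreated A and C. The median of the 42 without restimulated C was -0.23, and the changes of Manba and Ppt1 were -0.61 and -0.53 (adjusted p = 0.0694 and 0.0895). By letter, restimulated cells were lower than pretreated cells for 39 genes in A, 36 in B and 40 in C, with median differences of -0.32, -0.10 and -0.59. In C, 60.2% of all genes were lower, against 49.7% in A and 54.6% in B. With the replicate letter as a block, 1 gene fell, Naglu (log2 change -0.66, adjusted p = 0.0363), and Manba and Ppt1 did not pass (adjusted p = 0.0591 and 0.0544).

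Manba, the beta-mannosidase, had intensities of 567.0, 679.7 and 369.1 in restimulated cells, against 1017, 900.9 and 960.5 in pretreated cells. The groups did not overlap, restimulated C was the lowest, and the log2 change was -0.86 (SE 0.20, adjusted p = 0.045). Ppt1, the thioesterase, had 1063, 1307 and 1184 in restimulated cells, against 1552, 1566 and 2041 in pretreated cells, again without overlap and with a log2 change of -0.52 (SE 0.12, adjusted p = 0.0367).

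**Figure D5:**
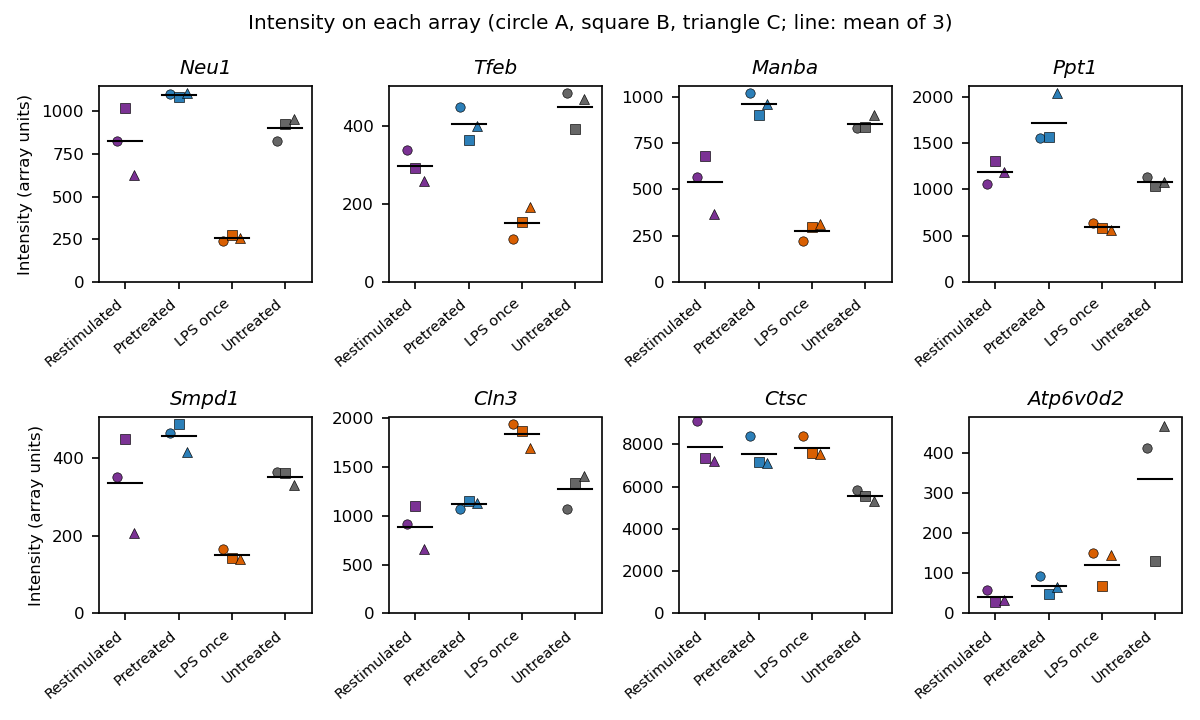
Intensity in array units of 8 lysosomal genes on each array, by group, with circles for A, squares for B, triangles for C and a line for the mean of 3. Neu1, Tfeb, Manba, Ppt1 and Smpd1 are lowest in cells given LPS once, Cln3 is highest there, Ctsc is lowest in untreated cells, and Atp6v0d2 is highest on 2 of the 3 untreated arrays. Each panel has its own scale starting at 0.

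The difference between the second and the first response was tested as an interaction. It was positive for 39 of the 42 genes, that is, the second response was less negative or more positive, and was positive for 8460 of all 18194 genes. The median was 0.34. The test passed for 2 genes, Neu1 and Tfeb, both higher, and for none lower, while 1.93% of all genes passed as higher and 1.97% as lower. Both differences were at least 2-fold, as were higher differences for 1.24% and lower ones for 1.45% of all genes. At an unadjusted p under 0.05, limma counted 13 higher and 2 lower, and 1556 higher and 1630 lower of all 18194 genes.

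Neu1, the sialidase, had intensities of 828.0, 1020 and 626.8 in restimulated cells, against 1101, 1083 and 1104 in pretreated cells. Its second log2 change was -0.43, against a first change of -1.74, and the difference was 1.31 (SE 0.20, adjusted p = 0.0103). It passed in all 18 alternatives tried, leaving out each array included. Tfeb had 340.1, 292.8 and 260.0 in restimulated cells, against 449.0, 365.3 and 399.8 in pretreated cells. Its second change was -0.43, against a first change of -1.50, and the difference was 1.07 (SE 0.25, adjusted p = 0.0462). With the replicate letter as a block Tfeb did not pass (adjusted p = 0.0657). It passed without LPS once A, LPS once C or restimulated C, and did not pass without any 1 of the other 9 arrays.

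Without restimulated C, 11 of the 42 genes had a higher second response, or 26.2%, where 6.07% of all genes did, against 1.93% with all arrays. The median difference was then 0.47, with 1.49 for Neu1 and 1.16 for Tfeb. The 9 added genes included Gusb, Smpd1, Fuca1, Manba and Grn. The same setting and the one without restimulated B called Cln3 as lower, with differences of -0.69 and -1.05 in place of -0.89. The block called Ctsc as lower (-0.43, adjusted p = 0.0316).

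Because all restimulated and LPS once cells had the last dose, their comparison gives the level after LPS with and without pretreatment. Of the 42 lysosomal genes, 11 were higher and 1 was lower in restimulated cells, where 7.50% of all genes were higher and 7.21% lower. The 11 make up 26.2% of the 42. At least 2-fold differences were found for 2 higher genes (Neu1 and Smpd1) and 1 lower (Cln3), where 2.51% of all genes were higher and 3.21% lower by as much. The median log2 difference was 0.27 in a range from -1.25 to 1.59, against 0.00 over all genes. The restimulated arrays lay all above the LPS once arrays for 17 of the 42, as for 11.7% of all genes, and all below for 2, as for 14.1%. Among genes with a mean intensity of at least 100, 14.9% were higher and 13.3% lower.

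This count also moved with the restimulated arrays, to 7 without A, 7 without B and 19 without C, as the share of all genes that were higher moved to 5.26%, 4.77% and 13.1%. The median difference of the 42 was 0.28, 0.19 and 0.37 in these settings. All 12 genes that passed with all arrays also passed without restimulated C, with differences of 1.77 for Neu1, 1.33 for Smpd1, 0.97 for Ppt1, 1.01 for Tfeb, 1.13 for Manba, 0.84 for Gaa, 0.72 for Gusb and -0.86 for Cln3. Restimulated cells were higher than cells given LPS once for 37 genes in A, 36 in B and 23 in C, with median differences of 0.35, 0.47 and 0.07. Of the 12 genes that passed, 7 passed with any 1 array left out. Gusb did not pass in 8 of the 12 cases, and Ctsd, Gaa, Grn and Ctsh not without 2 to 4 of the LPS once and restimulated arrays. With the replicate letter as a block 16 were higher, Asah1, Ctsz, Galns, Ids and Naglu being added, and 2 were lower, Atp6v0d2 being added. Of all 18194 genes the block called 1588 higher and 1572 lower. Other measures also differed between these groups, and their part in the counts was not tested. The Gapdh ratio of 3′ to 5′ probe sets was 1.127, 1.079 and 1.471 in restimulated cells, against 1.22 to 1.85 in cells given LPS once, and that of Actb was 1.132, 1.213 and 1.751, against 1.406 to 1.932. The macrophage marker sum was 56578 to 65195 in restimulated cells, against 55480 to 57140 in cells given LPS once, with group means of 5157 and 2108 for Itgam. The neutrophil and granulocyte precursor sum was 252.2 to 472.9, against 326.2 to 1533 in cells given LPS once, and the erythroid and megakaryocyte sum was 5723 to 10452, against 4907 to 6696. This comparison shares the LPS once arrays with the first response and the restimulated arrays with the second.

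Neu1 had the largest difference, 1.59 (SE 0.14, adjusted p = 0.000176), with 828.0, 1020 and 626.8 in restimulated cells, against 240.7, 275.2 and 257.7 in cells given LPS once. Smpd1, the sphingomyelinase, had 350.7, 449.3 and 207.8 in restimulated cells, against 164.9, 142.7 and 139.6 in cells given LPS once, a difference of 1.03 (SE 0.21, adjusted p = 0.0107). Ppt1 had 1063, 1307 and 1184 in restimulated cells, against 641.7, 580.8 and 563.6 in cells given LPS once, a difference of 0.97 (SE 0.12, adjusted p = 0.000629). None of these groups overlapped, and for Neu1 and Smpd1 restimulated C was the lowest of its group. For Ppt1 a further probe set of mean intensity at least 100 had the opposite sign in this comparison.

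Tfeb, the transcription factor, had 340.1, 292.8 and 260.0 in restimulated cells, against 109.6, 153.6 and 192.2 in cells given LPS once, a difference of 0.92 (SE 0.18, adjusted p = 0.00711). Manba had 567.0, 679.7 and 369.1 in restimulated cells, against 220.1, 297.2 and 314.5 in cells given LPS once, a difference of 0.89 (SE 0.20, adjusted p = 0.0144). Both sets of arrays were separate, Manba by the narrow gap between restimulated C and LPS once C. Gaa, the alpha-glucosidase, had 540.0, 779.9 and 497.4 in restimulated cells, against 281.2, 422.6 and 379.7 in cells given LPS once, a difference of 0.71 (SE 0.18, adjusted p = 0.028).

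Gusb, the beta-glucuronidase, had 2813, 3486 and 2226 in restimulated cells, against 1735, 2126 and 1852 in cells given LPS once, a difference of 0.55 (SE 0.15, adjusted p = 0.0372). The other 4 higher genes were Ctsh, Atp6v0d1, Grn and Ctsd, with differences from 0.28 to 0.50. By role, 4 of 13 glycosidases and sulfatases, 2 of 7 lipid-handling genes, 2 of 2 regulators, 1 of 3 aspartic and serine proteases, 1 of 8 cysteine proteases and 1 of 4 pump subunits were higher.

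Cln3 was the gene that was lower, with 915.5, 1097 and 656.7 in restimulated cells, against 1943, 1867 and 1695 in cells given LPS once. The difference was -1.06 (SE 0.17, adjusted p = 0.00284), and the arrays did not overlap. Atp6v0d2 had 58.00, 29.75 and 33.97 in restimulated cells, against 151.9, 68.08 and 145.6 in cells given LPS once. Its arrays did not overlap either, and its difference of -1.25 (SE 0.45) did not pass (adjusted p = 0.101) except with the replicate letter as a block (adjusted p = 0.0141), among genes of mean intensity at least 100 or without untreated B. On the probe set used, Ctsc was above the untreated level in every treated group. It had 9086, 7375 and 7235 in restimulated cells and overlapped the 7543 to 8407 of cells given LPS once.

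The 91 other lysosomal genes held 17 that were higher after pretreatment and LPS than after LPS once, and 3 that were lower. Of all genes 7.50% were higher and 7.21% lower. Sgsh, the heparan sulfate sulfatase, was higher by 1.72, Lamtor4, a subunit of the complex that anchors nutrient signalling to the lysosome, by 1.35, and Slc36a1, an amino acid transporter, by 1.20. Tfec, Gnptab, whose product makes the mannose phosphate tag, and Mitf, another relative of Tfeb, had differences of -2.07, -0.71 and -0.50. Without restimulated C, 33 of the 91 were higher and 1 lower, where 13.1% of all genes were higher and 6.44% lower. Sgsh then differed by 1.78, and Gnptab and Mitf did not pass (limma adjusted p = 0.0515 and 0.0529). In the interaction 7 of the 91 were higher and 3 lower, where 1.93% of all genes were higher and 1.97% lower. Sgsh, Ctns, the cystine exporter, and the channel Tpcn2 had differences of 1.78, 1.36 and 1.33, and Acp5, Tfec and Naaa had -2.84, -2.54 and -1.997. Without restimulated C these counts were 14 higher and 3 lower, against 6.07% and 2.62% of all genes, and all 6 genes passed. In the second response Slc36a1, Tpcn1 and Sgsh fell by 1.64, 1.53 and 1.32 on the log2 scale, and without restimulated C the first still passed (adjusted p = 0.0344) and the other two did not (adjusted p = 0.0964 and 0.0675).

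Other probe sets of the same genes gave a second reading, not independent of the first since they share the arrays. Of the 42 genes, 30 had more than 1 probe set, and 39 further probe sets had a mean intensity of at least 100. In the first response 38 of the 39 had the same sign as the probe set used, all but one of Ctsz, and in the second response 39 did. In the interaction 35 had the same sign, in the pretreatment effect 29 and in the level after LPS 26. Probe sets of Ctsz, Gla, Lamp2 and Ppt1 had another sign in the interaction. Without s, x and a probe sets, Man2b1 was read from another probe set. Its log2 changes there were -1.99 in the second response and 1.56 in the interaction (limma adjusted p = 0.00282 and 0.0218). In the level after LPS its difference was 1.54 (limma adjusted p = 0.00119). In the first response Man2b1 also fell and passed there. Since the interaction is the second change minus the first, that fall was larger than the one in the second response. It was also larger than the -1.74 of Neu1 on the probe set used.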

How the data were processed

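Per the labels' protocols, RNA from the 12 macrophage cultures was extracted in TriFast, and the label (biotin, PE) was applied as Affymetrix prescribes. The deposited table holds 1 intensity per probe set and array on a linear scale. Its program, background correction and scaling are not given in these sources. That the scale is linear follows from the values.

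Of 45101 probe sets, 64 were controls, 34958 carried 1 symbol in the platform annotation, 932 several and 9147 were unnamed here. RefSeq's gene table (GRCm38.p6) gave current symbols for 34754 through their Entrez identifiers, and 204 kept the platform's symbol. Each gene took its probe set of highest mean. Intensities were used as log2(value + 16) with no further normalization, which understates changes of dim genes. One limma 3.58.1 fit in R 4.3.3 of 4 group means over 12 arrays (8 residual and 1.71 prior degrees of freedom) gave 5 contrasts, with Benjamini-Hochberg adjustment over 18194 genes. The threshold was an adjusted p under 0.05. The number of arrays limits the precision.

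All 42 measured genes could be named. Values by array were given for up to 8 passing genes with the largest change per contrast, also in the first response for Cln3, which is among them in the level after LPS, and for Ctsc and Atp6v0d2 besides. Up to 3 other lysosomal genes were named per contrast and direction. The genes and lists were chosen with earlier results of these data known. Promoter sequences are from RefSeq (GRCm38.p6).

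Replicate letters were checked for pairing by correlating deviations from group means. The 18 pairs of arrays sharing a letter had r from 0.252 to 0.66, and the 36 pairs with different letters had -0.486 to 0.0154. Deviations from a group mean cancel within the group, so the second range follows in part from the first and is not separate evidence of pairing. Because of the first range the letters were taken to pair the cultures, from the data and not from the labels. The main fit does not use this pairing, so the p-values given without mention of a block ignore it. The alternative with the letter as a block uses it. Alternatives were quantile normalization, the letter as a block, another pseudocount and filter, other probe sets, another prior, only the arrays compared, and leaving out each array.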

Additional observations from a re-analysis of the deposited data

Results flagged for a closer look

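The second and first LPS responses of Neu1 and Tfeb differed by the interaction test, with the smaller fall in pretreated cells and the larger in cells without pretreatment, but the call for Tfeb depended on the fit. The difference for Neu1 was 1.31 on the log2 scale (SE 0.20, limma adjusted p = 0.0103), and for Tfeb it was 1.07 (SE 0.25, limma adjusted p = 0.0462). Neu1 passed in all 18 alternatives. Tfeb passed in 7 of them and in 11 did not, among them the one with the replicate letter as a block (limma adjusted p = 0.0657), and its highest adjusted p was 0.1175. Groups of 3 arrays are too small for the test for a single deviating sample, so none was made.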

How the results depend on the processing

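Of the 42 lysosomal genes, 34 passed in the first response, and 25 of them kept their call and sign under all 19 alternatives. The count that fell was 26 to 32 when each array was left out in turn, and the count that rose was 1 to 2. Of all 18194 genes 3018 to 4322 fell and 1553 to 3499 rose. Asking for a 2-fold change besides left 9 lower and 0 higher in the first response, 0 higher in the pretreatment effect, 0 lower in the second response, and 2 higher in the level after LPS. The one reversed change was that of Laptm5, 0.23 without s, x and a probe sets, which did not pass. With the replicate block, 2 genes were higher and 1 lower in the pretreatment effect, and 1 was lower in the second response. The interaction had 1 higher and 1 lower, and the level after LPS had 2 lower. Of all genes the block called 163 higher and 169 lower in the pretreatment effect, and 646 lower in the second response. It called 423 of them higher and 438 lower in the interaction. Every call that the block changed is named with the results above. Quantile normalization gave 0 higher in the pretreatment effect, 1 lower in the second response, 10 higher and 1 lower in the interaction and 22 higher in the level after LPS. Over all genes it gave 821 higher and 478 lower in the interaction (351 and 358 without it), 2259 and 1376 in the level after LPS (1364 and 1311 without it) and 334 and 476 in the second response (175 and 563 without it). Without s, x and a probe sets 4 were lower in the second response, Man2b1 and Mcoln1 being added, where 483 of 16593 genes were lower. Man2b1 and Mcoln1 were then also higher in the level after LPS. A trended, robust prior left 0 higher in the pretreatment effect, 1 lower in the second response and 1 higher in the interaction. The counts of all genes were 103, 549 and 288. With only the arrays compared, 0 were higher in the pretreatment effect, 0 lower in the second response and 2 higher in the level after LPS, from a fit on fewer samples. The counts of all genes were 189, 0 and 451. Since no gene at all was lower in the second response there, that count does not set the 42 apart. Among genes of mean intensity at least 100, 1 was lower in the pretreatment effect and 2 in the level after LPS, where 92 and 1318 of all 8372 such genes were lower. Leaving out each array gave 0 to 1 higher and 0 to 1 lower in the pretreatment effect, and 0 to 14 lower in the second response. It gave 1 to 11 higher and 0 to 1 lower in the interaction, and 7 to 19 higher and 1 to 2 lower in the level after LPS. Of all genes 33 to 172 were then higher in the pretreatment effect, and 55 to 1237 lower in the second response. In the interaction 94 to 1104 of all genes were higher, and in the level after LPS 841 to 2381. Apart from those that use fewer samples or genes, the cause of these shifts was not tested.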
